A study of Mus musculus with 24 samples.

Results

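Foxa and Flag ChIP-seq peaks were described in windows set for 6 liver genes, Alb, Afp, Apob, Mat1a, Apoa1 and Ttr, in 14 peak lists from mouse cells. ChIP-seq sequences the DNA that an antibody pulls down, and a peak is a stretch where the submitters' software called more of it than elsewhere. The peaks were selected by position alone, as all peaks that overlap 1 of 5 windows of the mm9 genome: chr5:90870000-90950000 for Alb and Afp, chr12:7970000-8040000 for Apob, chr14:41900000-41960000 for Mat1a, chr9:46030000-46070000 for Apoa1 and chr18:20800000-20850000 for Ttr. Of the 26332 peaks in all lists, 100 met this rule. The windows were set with the lists known, so the number of peaks in them is a description and was given no test.

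The lists came from C57BL/6 cells, as follows. Hepatocytes were isolated by collagenase digestion from livers of adult mice aged 10 weeks and carry no introduced factor per the labels. They were profiled with antibodies against Foxa3, Foxa1 and Foxa2 in 1 EGS library each. Induced hepatocyte-like (iHep) cells started as fibroblasts taken from mouse embryos at day 13.5. Line 4a1 received Foxa1 and Hnf4alpha by infection, line 4a2 Foxa2 and Hnf4alpha, and line 4a3 Foxa3 and Hnf4alpha. Each line was profiled with the antibody against its own Foxa factor, in 3 libraries per line. In each line 2 of these libraries are titled EGS, and the other is called non-EGS here. In addition, 1 EGS library of line 4a2 and 1 of line 4a3 used an antibody against the Flag epitope tag. The labels do not spell out EGS, and it served only as a label. Factor, line and antibody change together in iHep cells and cannot be told apart. The titles of the 3 hepatocyte libraries carry the code R176, which no iHep title carries and which the labels do not explain, so whatever it marks and cell type cannot be told apart either. The number after the line in an iHep title is called the culture number here. In lines 4a1 and 4a2 the non-EGS library shares number 2 with an EGS library, and nothing in the labels says that different numbers are separate inductions.

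List length bounds every count. The hepatocyte lists held 1091 peaks for Foxa3, 166 for Foxa1 and 244 for Foxa2. The iHep Foxa lists ranged between 46 peaks (Foxa3 EGS culture 3 of line 4a3) and 11408 peaks (Foxa2 non-EGS of line 4a2). No read counts are given, so the depth is unknown. A longer list need not come from a deeper library. A peak list does not separate fewer cells with bound factor from less binding per cell. It also holds no RNA level, so neither the identity of the cells nor the abundance of these transcripts was measured.

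Foxa1, Foxa2 and Foxa3 are forkhead proteins that bind DNA as monomers and can engage sites in closed chromatin. In the liver they share sites with Hnf4alpha and other factors at genes for plasma proteins, and the regulatory regions of Alb and Ttr are textbook examples of such sites. Alb encodes serum albumin, and Afp, its neighbour, encodes alpha-fetoprotein, the fetal counterpart that is shut down after birth. Apob and Apoa1 encode the structural proteins of very-low-density and high-density lipoprotein. Ttr encodes transthyretin, which carries thyroid hormone and retinol-binding protein, and Mat1a the liver enzyme that makes S-adenosylmethionine. All 6 genes lie on the chromosome of their window in the GRCm38.p6 annotation. Coordinates of that build were not transferred to mm9, so no peak was assigned to a promoter, an exon or an intron. A peak described as at a gene lies in the window of that gene. The window of Alb and Afp is also called Alb for short, which assigns no peak to either gene. In the gene order of that annotation Afp follows Alb and Afm follows Afp, Apoc3, Apoa4 and Apoa5 follow Apoa1, and Mat1a lies between Dydc1 and Sftpa1.

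Promoters of 4 of the 6 genes were examined, taken from RefSeq's promoter table (GRCm38.p6). All 4 show letters that forkhead proteins are known to bind. Mat1a has no entry in that table, and the promoter of Ttr was not examined. Each sequence runs 5′ to 3′ over 300 bases, 250 before the start site and 50 after it, on the plus strand: Alb at chr5:90460620-90460919, Afp at chr5:90490464-90490763, Apob at chr12:7977427-7977726 and Apoa1 at chr9:46228380-46228679. Capitals mark the letters TGTTTGC or their reverse complement.
Alb: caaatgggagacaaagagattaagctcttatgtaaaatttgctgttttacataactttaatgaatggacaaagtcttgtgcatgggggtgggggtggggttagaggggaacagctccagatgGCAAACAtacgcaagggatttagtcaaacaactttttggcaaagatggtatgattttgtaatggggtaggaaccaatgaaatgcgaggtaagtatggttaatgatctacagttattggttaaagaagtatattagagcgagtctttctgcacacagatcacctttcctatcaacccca
Afp: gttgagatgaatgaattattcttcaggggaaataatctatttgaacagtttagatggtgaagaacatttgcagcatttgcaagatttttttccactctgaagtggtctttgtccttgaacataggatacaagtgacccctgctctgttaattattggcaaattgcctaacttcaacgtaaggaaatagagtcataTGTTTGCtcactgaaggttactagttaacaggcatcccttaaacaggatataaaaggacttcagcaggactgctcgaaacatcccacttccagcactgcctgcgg
Apob: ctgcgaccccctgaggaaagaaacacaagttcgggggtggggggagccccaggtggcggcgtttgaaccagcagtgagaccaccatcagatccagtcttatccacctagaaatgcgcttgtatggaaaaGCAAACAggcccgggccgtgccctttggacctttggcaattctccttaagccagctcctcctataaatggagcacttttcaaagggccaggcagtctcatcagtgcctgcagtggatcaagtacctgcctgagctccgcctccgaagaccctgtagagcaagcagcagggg
Apoa1: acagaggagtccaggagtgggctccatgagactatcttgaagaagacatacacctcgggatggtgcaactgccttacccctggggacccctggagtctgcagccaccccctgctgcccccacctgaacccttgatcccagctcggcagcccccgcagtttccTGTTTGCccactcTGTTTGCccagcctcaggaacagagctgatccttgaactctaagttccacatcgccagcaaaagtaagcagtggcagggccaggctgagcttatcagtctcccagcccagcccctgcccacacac
The search covered both strands for TGTTTAC, for the letters TGTTTGC, for TATTTAC as a further form, and for the form TATTTGC. No match overlapped another in the 4 promoters. All 5 matches were TGTTTGC. In Apoa1 there were 2, which began 88 and 75 bases before the start site. In Alb and Apob 1 match lay on the minus strand, and in Afp 1 lay on the plus strand. Of the 32851 promoters of the table, 5.07% held TGTTTGC and 13.5% held any of the 4 motifs. A match is a run of letters and not a measured site. The mm9 peaks were not placed on these sequences.

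In hepatocytes, the Foxa3 antibody gave 86 peaks in the windows, and they made up 7.88% of its list (exact 95% interval 6.35 to 9.64). Such an interval reflects only the counting of peaks, and neighbouring peaks of 1 stretch are not independent, so it is too narrow. The Foxa2 antibody gave 1 peak of 244 (0.41%, interval 0.0104 to 2.26). The Foxa1 antibody gave 0 of 166, with an exact interval that reaches up to 2.20%. The limit of 3 counts that a count of 0 allows is 1.81% of that list. The 9 iHep Foxa lists together held 10 peaks in the windows out of 23927. Of the 9, 5 had none in any window, and the limit of 3 counts is 0.288% to 6.52% of these lists. The list of line 4a2 without EGS had 4 of 11408 (0.0351%). The Foxa3 EGS list of culture 1 had 3 of 1246 (0.241%) and the Foxa3 non-EGS list 2 of 4317 (0.0463%). The Foxa1 non-EGS list had 1 of 3431 (0.0291%). The Flag list of line 4a2 had 3 and that of line 4a3 had 0 of 883. With 1 library per hepatocyte antibody, the difference between these antibodies has no replicate check.

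**Figure D1:**
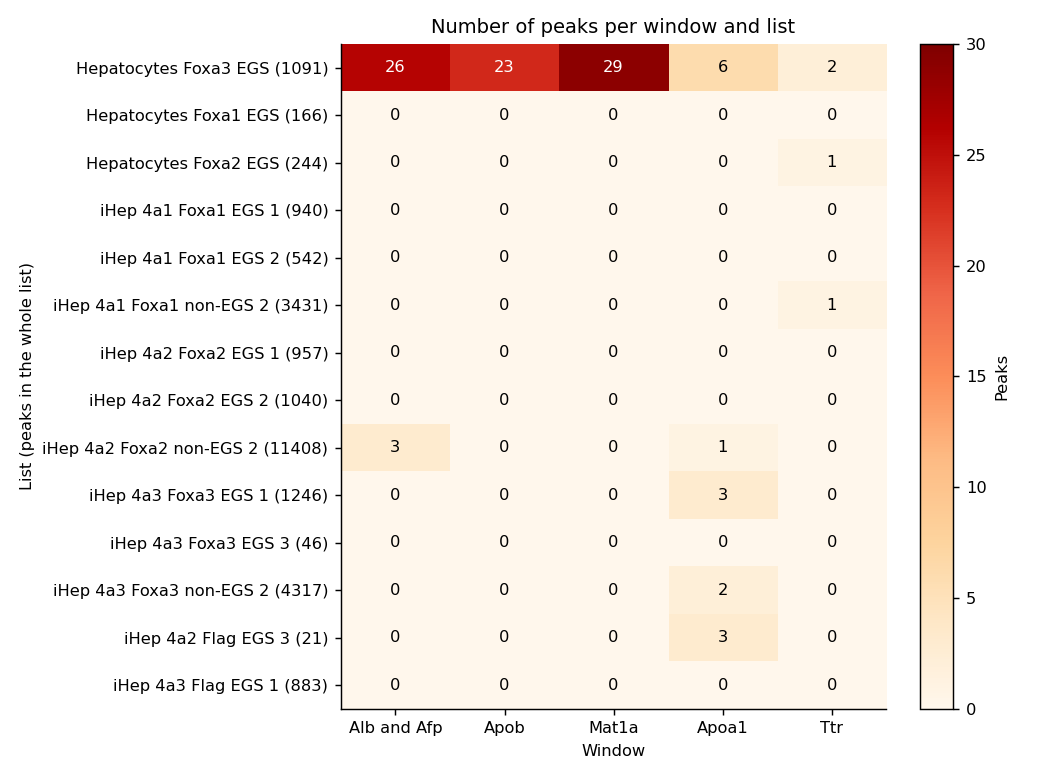
Number of peaks in each window (columns) for each of the 14 lists (rows, with the number of peaks in the whole list in brackets, and the culture number after each iHep name; the title of the 4a3 Flag library gives b2, and it is numbered 1). The top row, Foxa3 in hepatocytes, reads 26, 23, 29, 6 and 2, and no other cell exceeds 3.

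Merged across the 12 Foxa lists, overlapping by at least 1 bp, the windows held 88 regions. Of these, 82 held hepatocyte peaks only, 2 held peaks of both cell types and 4 held iHep peaks only. Over all 17748 merged regions of the same lists, 5.04% were found in hepatocytes only, 2.15% in both and 92.8% in iHep cells only. The windows were set on this contrast, so the share in them is no evidence of its own. All hepatocyte lists are EGS, whereas the iHep non-EGS lists held 3431, 11408 and 4317 of the 23927 iHep Foxa peaks. The shares over all regions therefore rest largely on non-EGS lists, and they were not computed for EGS lists alone. The 2 regions of both cell types lay in the Apoa1 and Ttr windows. All regions of the Apob window (23) and the Mat1a window (29) held hepatocyte Foxa3 peaks and nothing else. The count for hepatocytes rests on 1 library, since without the hepatocyte Foxa3 list it was 0. With EGS iHep lists only, the windows held 87 regions in hepatocytes only, 0 in both and 3 in iHep cells only.

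**Figure D2:**
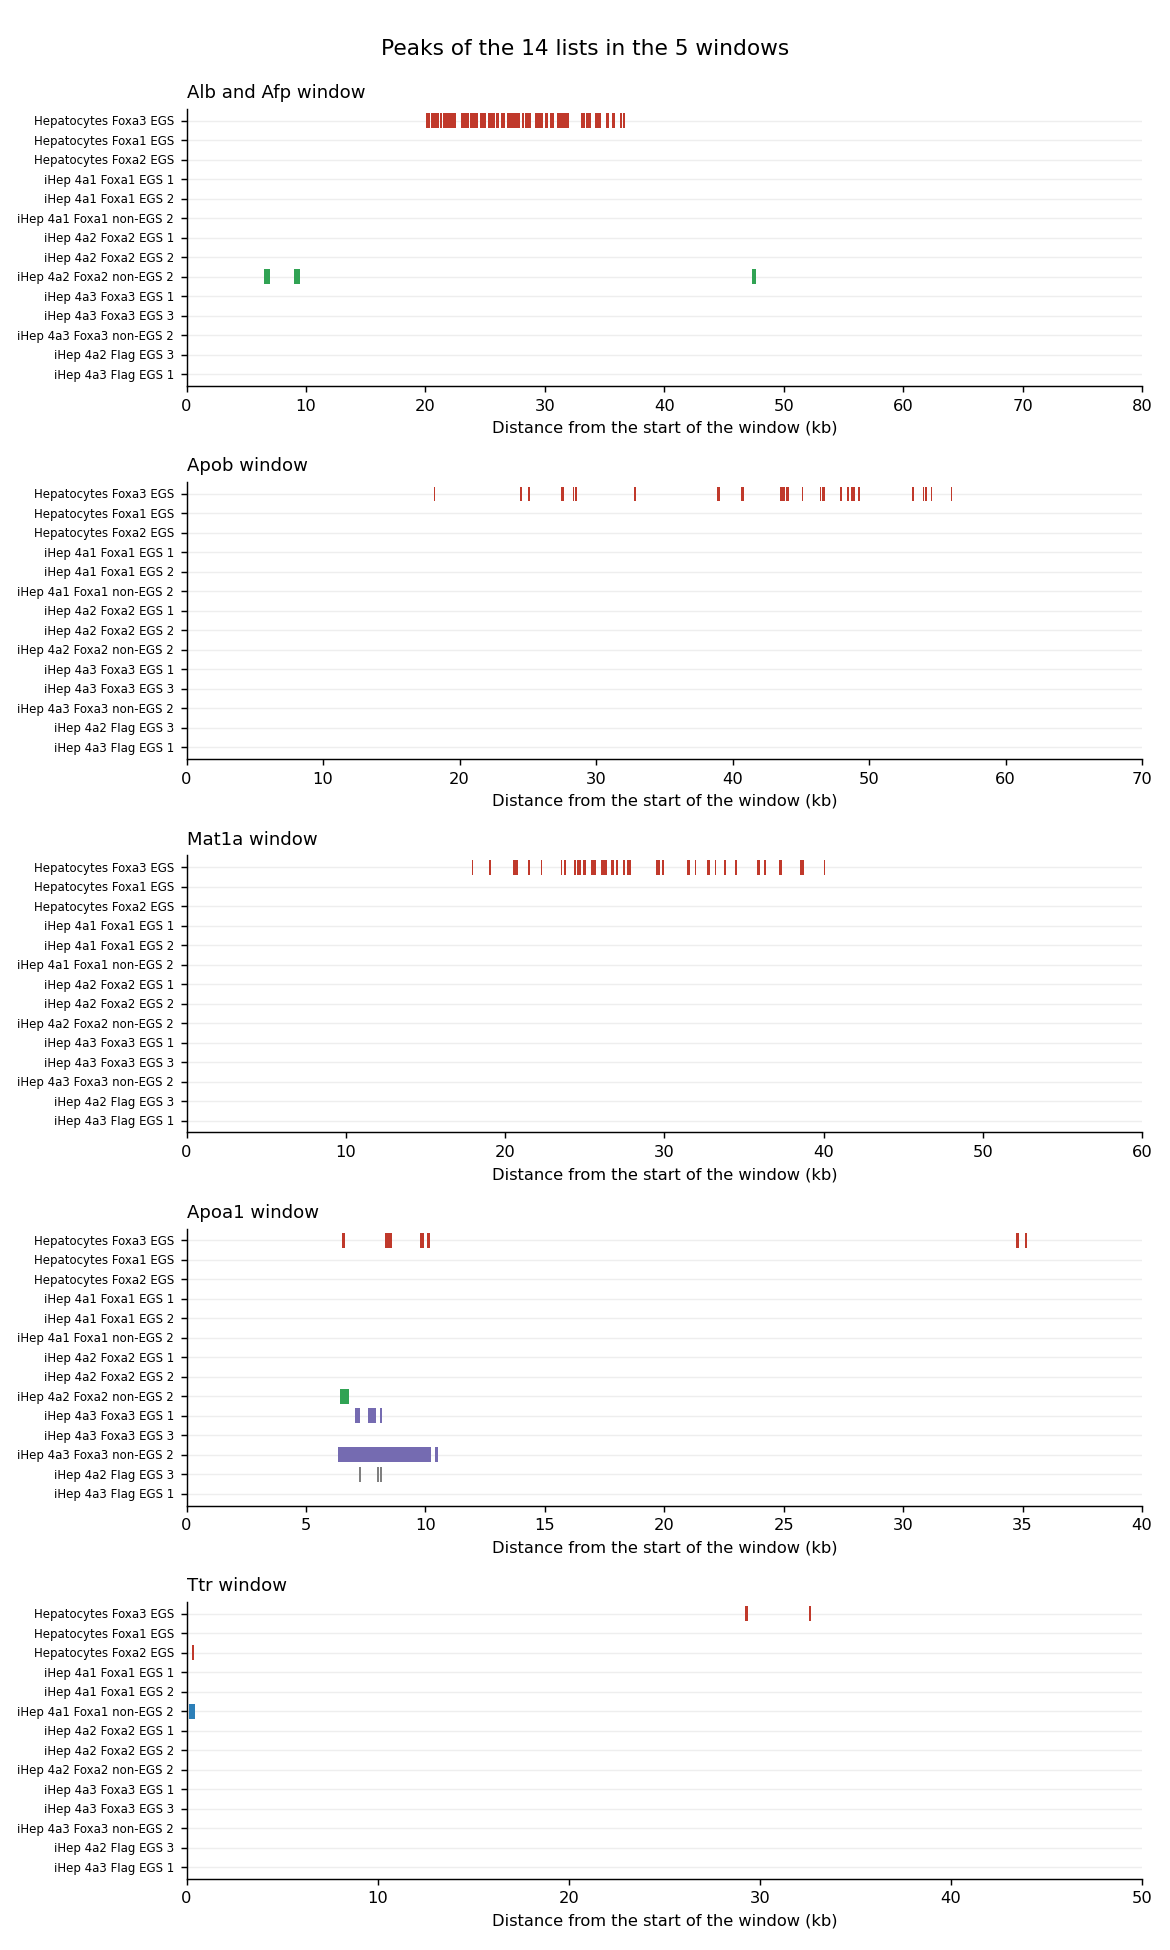
Position of every peak in the 5 windows, as the distance in kb from the start of the window, drawn to scale for the 14 lists. Hepatocyte lists are red, line 4a1 blue, line 4a2 green, line 4a3 purple and Flag lists grey. The hepatocyte Foxa3 row holds a nearly continuous stretch in the Alb window and looser stretches in the Apob and Mat1a windows, and the iHep peaks cluster in the Apoa1 window.

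At Alb and Afp, the 26 hepatocyte Foxa3 peaks formed a single stretch of 16.6 kb, between 90890065 and 90906699 on chromosome 5. Peaks covered 67.6% of the stretch. The median gap between neighbouring peaks was 153 bp and the widest 976 bp. Peak widths ranged between 101 and 1057 bp, with a median of 380.5 bp, against a median of 135 bp (quartiles 109 to 186) for the 1005 peaks of the list outside all windows. Of the 26, 9 were wider than 500 bp, as were 2.57% of the whole list. In rank, 9 of the 26 stood in the top 10% of the list by score, which holds 9.99% of its peaks. The median score percentile, the share of the list with a lower score with ties counted by their midpoint, was 78.6 and ran between 3.12 and 99.4. The highest scoring peak (score 24.3, rank 7.5 of 1091, 704 bp) lay at chr5:90890457-90891160, close to the start of the stretch. Before the midpoint of the stretch, 14 peaks covered 77.2% of the sequence, and after it 12 peaks covered 57.9%.

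The 20.1 kb of that window before the stretch and the 43.3 kb after it held no hepatocyte peak. The window of this pair of genes contained 1 stretch. Hepatocyte Foxa1 and Foxa2 had 0 peaks there. In iHep cells 3 peaks were found, all in the Foxa2 non-EGS list of line 4a2, and none overlapped a hepatocyte peak. Those at chr5:90876479-90877022 and chr5:90878994-90879488 ended 13.04 and 10.58 kb before the hepatocyte stretch, at score percentiles 72.5 and 74.8. The last, at chr5:90917339-90917681, began 10.6 kb after it, at percentile 8.60. A further 3 peaks of this list and 2 of the Foxa1 non-EGS list of line 4a1 lay 0.7 to 9.81 kb before the window. The nearest hepatocyte Foxa3 peaks outside the window were 983 kb before and 13234 kb after it.

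At Apob, 23 hepatocyte Foxa3 peaks lay between 7988106 and 8026106 on chromosome 12, a span of 38.001 kb. They were sparser and narrower than at Alb. Peaks covered 9.57% of the span, the median gap was 774 bp and the widest 6190 bp. Widths ranged between 101 and 328 bp with a median of 152 bp, and none exceeded 500 bp. The median score percentile was 21.7, and none of the 23 reached the top 10% of the list. The highest scoring peak, at chr12:8023926-8024028, had a percentile of 75.5. Before the midpoint 7 peaks covered 5.24% of the sequence and after it 16 peaks covered 13.9%, so the peaks were denser in the portion after the midpoint, where their median percentile was 43.0, against 14.8 before it. No other list had a peak in the window. The nearest iHep Foxa peak belonged to the Foxa2 non-EGS list of line 4a2 and ended 42.9 kb before the window.

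At Mat1a, 29 hepatocyte Foxa3 peaks lay between 41917905 and 41940119 on chromosome 14. They spanned 22.2 kb, of which 21.97% was covered, with a median gap of 484 bp and a widest gap of 1574 bp. Their number per kb was 1.31, against 1.56 at Alb and 0.605 at Apob. Widths ranged between 101 and 345 bp with a median of 159 bp. The median score percentile was 35.6, and 1 of the 29 stood in the top 10% of the list, that at chr14:41924534-41924754 with a percentile of 91.9. Before the midpoint 16 peaks covered 25.97% of the sequence and after it 13 covered 17.96%. As at Apob, the other 13 lists held no peak. The nearest iHep Foxa peak, of the same Foxa2 list, began 31.2 kb after the window.

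**Figure D3:**
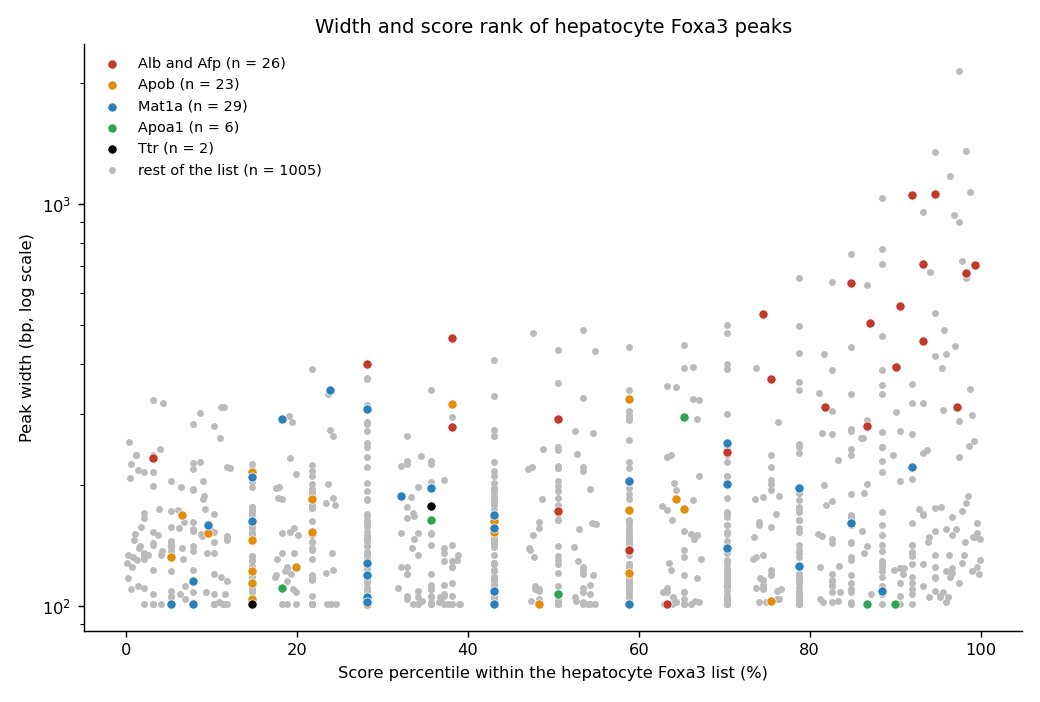
Width in bp (log scale) against score percentile in % for each peak of the hepatocyte Foxa3 list, coloured by window, with the 1005 peaks outside the windows in grey. Peaks of the Alb window reach 1057 bp and 9 of the 26 lie at or above percentile 90, whereas no Apob or Mat1a peak exceeds 345 bp.

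The 26, 23 and 29 peaks of these 3 windows came with median widths of 380.5, 152 and 159 bp and median percentiles of 78.6, 21.7 and 35.6. Among the top-scoring 50% of the list, 21 peaks remained at Alb, 6 at Apob and 10 at Mat1a, so the order of the windows by number of peaks was not the same as in the full list. Peaks within 1 kb merged into 1 gave 1, 11 and 8. Over all 86 peaks the median width was 170 bp, against 135 bp in the rest of the list, and the median percentile was 43.0. Scores take few values in this list, 248 over 1091 peaks and 39 over the 86, so many ranks are tied. In covered length the windows held 20.9 kb of the 196 kb of the list, or 10.7%, of which Alb made up 11.2 kb, Mat1a 4.88 kb and Apob 3.64 kb.

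Whether these stretches stand out in the list was described by runs, defined as at least 5 peaks with gaps of at most 5 kb. The hepatocyte Foxa3 list held 51 runs with 51.2% of its peaks. The Mat1a run ranked 4 of 51 by number of peaks and the Alb run ranked 5. At Apob the peaks split into a run of 16 (rank 7), a run of 6, which shared ranks 37 to 43, and 1 lone peak. By share of span covered, the Alb run ranked 3 of 51, the Mat1a run 28, and the Apob runs 42 and 48. By peaks per kb, the Alb run ranked 19, the Mat1a run 29, and the Apob runs 39 and 46. Their values were 1.56, 1.31, 0.930 and 0.708 per kb, against a median of 1.36 in the runs outside the windows. The 47 runs outside the windows covered a median of 24.99% of their span (5.65 to 83.5). Of the 3 runs with more peaks than Mat1a, which held 39, 38 and 36, each also held peaks of another list. The runs at Mat1a, Alb and Apob held none, as was the case for 20 of the 51 runs (39.2%).

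**Figure D4:**
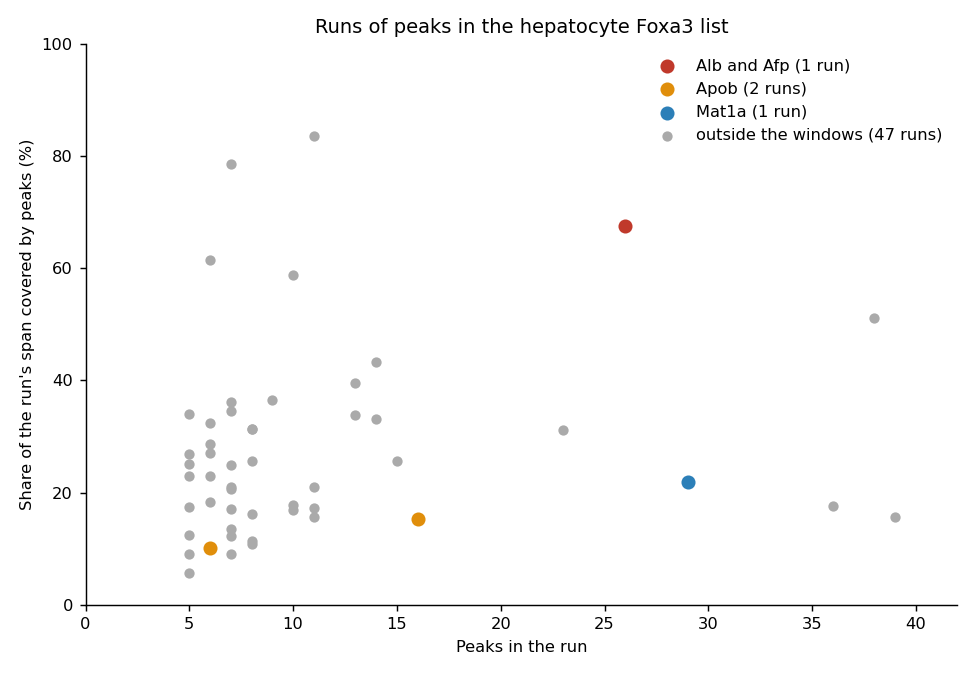
Number of peaks in each run of the hepatocyte Foxa3 list against the share of the run's span in % that peaks cover, for the 4 runs in the windows and the 47 outside them. The Alb run combines 26 peaks with 67.6% coverage, while the Mat1a run of 29 peaks covers 21.97% and the Apob runs cover 15.3% and 10.2%.

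Runs as such were not particular to hepatocytes. The Foxa3 lists of line 4a3 held 31 runs (EGS culture 1), 2 (EGS culture 3) and 126 (non-EGS), with 20.5%, 32.6% and 21.5% of their peaks. In line 4a1 the Foxa1 EGS list of culture 2 held 3 runs with 17.7% of its peaks. In line 4a2 the EGS culture 2 and non-EGS Foxa2 lists held 1 run each, with 0.865% and 0.0526%. The remaining Foxa lists of lines 4a1 and 4a2 held none. No run of any iHep list touched a window. In hepatocytes the Foxa1 list held 2 runs with 50% of its peaks and the Foxa2 list 4 with 28.3%, also outside the windows.

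At Apoa1 both cell types had peaks. Hepatocyte Foxa3 gave 6 peaks of 101 to 295 bp, in a group of 4 between 6.5 and 10.2 kb from the window start and a pair at 34.7 and 35.1 kb. The highest scoring of them, at chr9:46036516-46036616, had a percentile of 89.96. Hepatocyte Foxa1 and Foxa2 gave 0. In line 4a3 the Foxa3 antibody gave 3 peaks in EGS culture 1, 0 in EGS culture 3, a list of only 46 peaks, and 2 in the non-EGS library. Line 4a2 gave 1 peak, in the non-EGS library, and line 4a1 gave 0 in all 3.

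The peak at chr9:46036330-46040235 of the Foxa3 non-EGS list was the broadest of all 100, with 3906 bp. It ranked 6 of 4317 in its list (score 63.7). The other peak of that list, at chr9:46040393-46040531 and percentile 18.9, overlapped no hepatocyte peak. The broad peak overlapped the group of 4 hepatocyte Foxa3 peaks, all 3 peaks of Foxa3 EGS culture 1 and the 402 bp peak of line 4a2. That 4a2 peak, at percentile 24.7, overlapped the hepatocyte peak with the highest score. None of the 3 peaks of Foxa3 EGS culture 1, of 210, 333 and 105 bp at percentiles 63.0, 29.8 and 24.2, overlapped a hepatocyte peak directly. They lay in the gap between the first and the second peak of the hepatocyte group. All 3 Flag peaks of line 4a2, 57 to 82 bp wide, also lay under the broad Foxa3 peak of line 4a3. None of them overlapped the Foxa2 peak of their own line, and the Flag list of line 4a3 had 0 peaks in this window. The 3 Flag peaks made up 14.3% of the 21 peaks of the 4a2 Flag list (interval 3.05 to 36.3). They lay within 0.945 kb and are not independent, so this interval is too narrow. The window was also set with the lists known. Merging across the 12 Foxa lists joined 9 peaks of 4 lists into this 1 region, so the number of shared regions understates the overlap of peaks.

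Counted by peak, 4 of the 86 hepatocyte Foxa3 peaks in the windows (4.65%) overlapped an iHep Foxa peak, all 4 at Apoa1, against 31.5% of the whole list. All 4 overlapped a Foxa3 peak of line 4a3, as did 25.8% of the whole list, and 1 also overlapped line 4a2 (3.67% of the list). None overlapped line 4a1 (5.59% of the list). None of the 86 overlapped a hepatocyte Foxa1 or Foxa2 peak, as 8.52% of the list did. As above, the windows were set on this contrast.

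The count at Apoa1 depends on where its window begins and ends. It was 1 with the window narrowed by 10 kb on both sides and 13 with it widened by 20 kb. A further 7 hepatocyte Foxa3 peaks lay 6.79 to 12.3 kb after its end and are not counted above, the nearest at chr9:46076785-46076890 (percentile 43.0), while the last peak inside, at chr9:46065102-46065202 (percentile 86.7), ended 4.80 kb before that end. Before the window, the Foxa2 non-EGS list of line 4a2 had 2 peaks, the nearer 5.88 kb away. The nearest hepatocyte Foxa3 peak before it was 3115 kb away. The nearest hepatocyte Foxa3 peaks outside the other windows lay 738 kb after the Apob window, 6774 kb before and 4048 kb after the Mat1a window and 14171 kb after the Ttr window.

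At Ttr, hepatocyte Foxa3 gave 2 peaks, of 177 and 101 bp and 3.17 kb apart, at chr18:20829213-20829389 and chr18:20832560-20832660. Their score percentiles were 35.6 and 14.8. Neither was among the top-scoring 50% of the list. No other list had a peak near them. The window held 1 more hepatocyte peak, the single one of the Foxa2 list in any window, at chr18:20800301-20800407. It stood at percentile 86.7 of its list, 28.8 kb before the Foxa3 pair and only 0.301 kb inside the window edge. It overlapped the single 4a1 peak of all windows, 317 bp wide at percentile 22.02 in the Foxa1 non-EGS list. The 2 EGS lists of line 4a1 held no peak there. The site that both cell types shared in this window carried a Foxa2 peak in hepatocytes and a Foxa1 peak in iHep cells, and the hepatocyte Foxa3 peaks lay elsewhere.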

How the data were processed

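The deposited data were 1 peak list per library for 14 of 24 samples. The 10 input samples had no file used here. The submitters' processing notes name MACS2 2.1.0, BWA 0.6.2 and bedtools 2.16.2 and build mm9. What each did, the threshold for a peak and whether inputs were subtracted is not given in the sources used here. Column 5 holds the authors' deposited score per peak, on a scale that is not stated, so scores served only to rank peaks within a list. Starts were written 1-based. Peaks were counted, merged and compared in Python 3.11.15 with scipy 1.17.1 (exact Clopper-Pearson 95% intervals), after the functions were tested on simulated peaks with known answers. Peaks overlapping by at least 1 bp were merged. The limit for a count of 0 is 3 counts. In each window the text names the highest scoring peak of each hepatocyte list, all peaks of an iHep list with 3 or fewer there, and the nearest hepatocyte Foxa3 peaks outside. The last peaks inside an edge and the second Ttr peak were named after their values were seen. The genes and windows were chosen with earlier results of these data known. A planned count at other hepatocyte genes needs mm9 annotation and was not analysed here. Alternatives were stricter lists, other window edges, merging within 1 kb, other gaps, other overlaps and leaving out libraries.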

Additional observations from a re-analysis of the deposited data

How the results depend on the processing

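Counts of hepatocyte Foxa3 and of iHep peaks were lower with stricter lists and with merging. The share of the hepatocyte Foxa3 list in the windows stayed between 7.33% and 8.52% with stricter lists, other edges or without shared blocks. Shared blocks were regions with peaks of at least 10 lists, and runs that overlapped in all 3 hepatocyte lists. Leaving them out kept 1039 of the 1091 peaks, with the stretches at Alb, Apob and Mat1a still in. The share was 4.41% with peaks within 1 kb merged and 10.7% by covered length. With the top-scoring 50% of each list there were 40 hepatocyte Foxa3 and 4 iHep peaks, regions of 39 (hepatocytes only), 1 (both) and 2 (iHep only), a median width of 231.5 bp and a median percentile of 54.3. The 40 were 21 at Alb (26 in the full list), 6 at Apob (23), 10 at Mat1a (29), 3 at Apoa1 (6) and 0 at Ttr (2). With the top 300 peaks these were 23 and 1 peaks, 23, 1 and 0 regions, 368 bp and 58.0, with 15 of the 23 at Alb, 1 at Apob, 5 at Mat1a and 2 at Apoa1. Merging within 1 kb left 26 hepatocyte Foxa3 peaks, of which 1 at Alb, 11 at Apob and 8 at Mat1a, with a median width of 435.5 bp and a median percentile of 49.1. The percentiles 54.3, 58.0 and 49.1 were ranked anew within the shortened or merged list, so they are not on the scale of the full list. Windows wider by 20 kb held 13 hepatocyte Foxa3 peaks at Apoa1, 17 iHep peaks and 10 iHep-only regions. Windows narrower by 10 kb held 1 hepatocyte Foxa3 peak at Apoa1, 3 iHep peaks, 0 hepatocyte Foxa1 or Foxa2 peaks, 1 region of both and 2 iHep-only regions. With EGS iHep libraries only, 0 regions were found in both cell types. By covered length, hepatocyte Foxa3 held 20.9 kb in the windows, hepatocyte Foxa1 and Foxa2 0.107 kb, and the iHep Foxa lists 6.79 kb.

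The run at Alb ranked 2 with the top-scoring 50% and 4 with gaps of at most 2 kb. The Mat1a run ranked 6 and 2, and 3 with peaks within 1 kb merged, where Alb had no run left because its peaks had become 1. The Apob run ranked 18 with the top-scoring 50%, 17 at 2 kb, 6 at 10 kb and 4 with merged peaks. Leaving out each of the 12 Foxa libraries in turn gave 0 to 85 regions in hepatocytes only, 1 to 2 in both and 1 to 6 in iHep cells only. The 0 came without hepatocyte Foxa3, and the 1 iHep-only region without the Foxa2 non-EGS library of line 4a2. No paired analysis was possible because no result comes from a test, but counts of libraries with the same number can be set side by side. Within number 2, the EGS and non-EGS lists held 0 of 542 and 1 of 3431 peaks in line 4a1. In line 4a2 they held 0 of 1040 and 4 of 11408. The lists of each pair also differ in length and in title code, so these counts do not tell EGS apart from either. Depth is unknown, so an absent peak does not show absent binding.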
